A study of Sus scrofa with 3 samples.

Results

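Chromosome 12 of the pig carried 3382 of the 89093 entries for differentially methylated CG sites and 1006 of the 25044 entries for differentially methylated regions that were listed between 3 breeds of pig, counting a site or region once in each comparison that lists it. These are every entry placed on chromosome 12 in the 6 deposited lists, and they fall on 2652 different sites. Of them, 1306 sites and 328 regions separated Enshi black pig from Large White pig, 1127 sites and 392 regions separated Enshi black pig from Chinese wild boar, and 949 sites and 286 regions separated Large White pig from Chinese wild boar. The chromosome was chosen by its density of listed differences, the highest of the 18 autosomes, so that density is given as a description with no test.

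In mammals, a methyl group is added mainly to cytosines followed by guanine (CG sites), and most CG sites of a liver cell are methylated. Stretches rich in CG sites, many of which lie at the starts of genes, are the usual exception and tend to be unmethylated. Pig chromosome 12 corresponds to a single human chromosome that is known for a high density of genes, among them genes of fatty acid synthesis and of growth hormone signalling. No gene model of chromosome 12 on the build of the deposited lists was used here, so no gene is placed against the regions.

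The DNA came from the livers of male pigs at postnatal day 90 and was sequenced after bisulfite treatment, which leaves methylated cytosine as it is and makes cytosine without the methyl group read as thymine. The groups were Chinese wild boar, Enshi black pig (a breed of China) and Large White pig (a breed of Europe). None was given a treatment, and each had 1 methylome. The growth protocol speaks of 3 pigs, and whether DNA of several pigs was pooled was not given in the sources used here. Reads were aligned to Sscrofa10.2, and the lists give methylation only, so the tissue could not be checked against marker genes. Each breed's single methylome leaves no spread between animals, so no test between breeds was possible, and the intervals below cover counting only. The read depth behind a level is unknown, and levels of neighbouring sites are smoothed together and are not independent. Columns of levels are numbered and not named, so breeds were read from the order of the codes in each list's name. At sites of chromosome 12 shared by a pair of lists, the columns read as the same breed correlated with r of 0.989 to 0.998 (409 sites for Enshi black pig, 169 for Large White pig and 163 for Chinese wild boar), and the remaining columns with r of 0.359 to 0.906.

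Listed sites numbered 20.6 per Mb of chromosome 12 between Large White pig and Enshi black pig, 17.8 between Chinese wild boar and Enshi black pig, and 14.96 between Chinese wild boar and Large White pig. Chromosome length was taken as the last listed position, 63.4 Mb. The medians of the other 17 autosomes were 10.6, 11.3 and 7.56 sites per Mb in the same order. The next densest autosomes held 15.2 (chromosome 10), 15.9 (chromosome 10) and 11.02 (chromosome 11). Regions numbered 5.17, 6.18 and 4.51 per Mb, beside medians of 3.34, 3.44 and 2.23 and next highest values of 4.55 (chromosome 10), 4.76 (chromosome 18) and 3.04 (chromosome 18). With 2.59% of the summed length of the autosomes, chromosome 12 thus held 1.97, 1.66 and 1.96 times the sites per Mb of the other autosomes pooled, and 1.76, 1.98 and 2.09 times the regions.

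**Figure D1:**
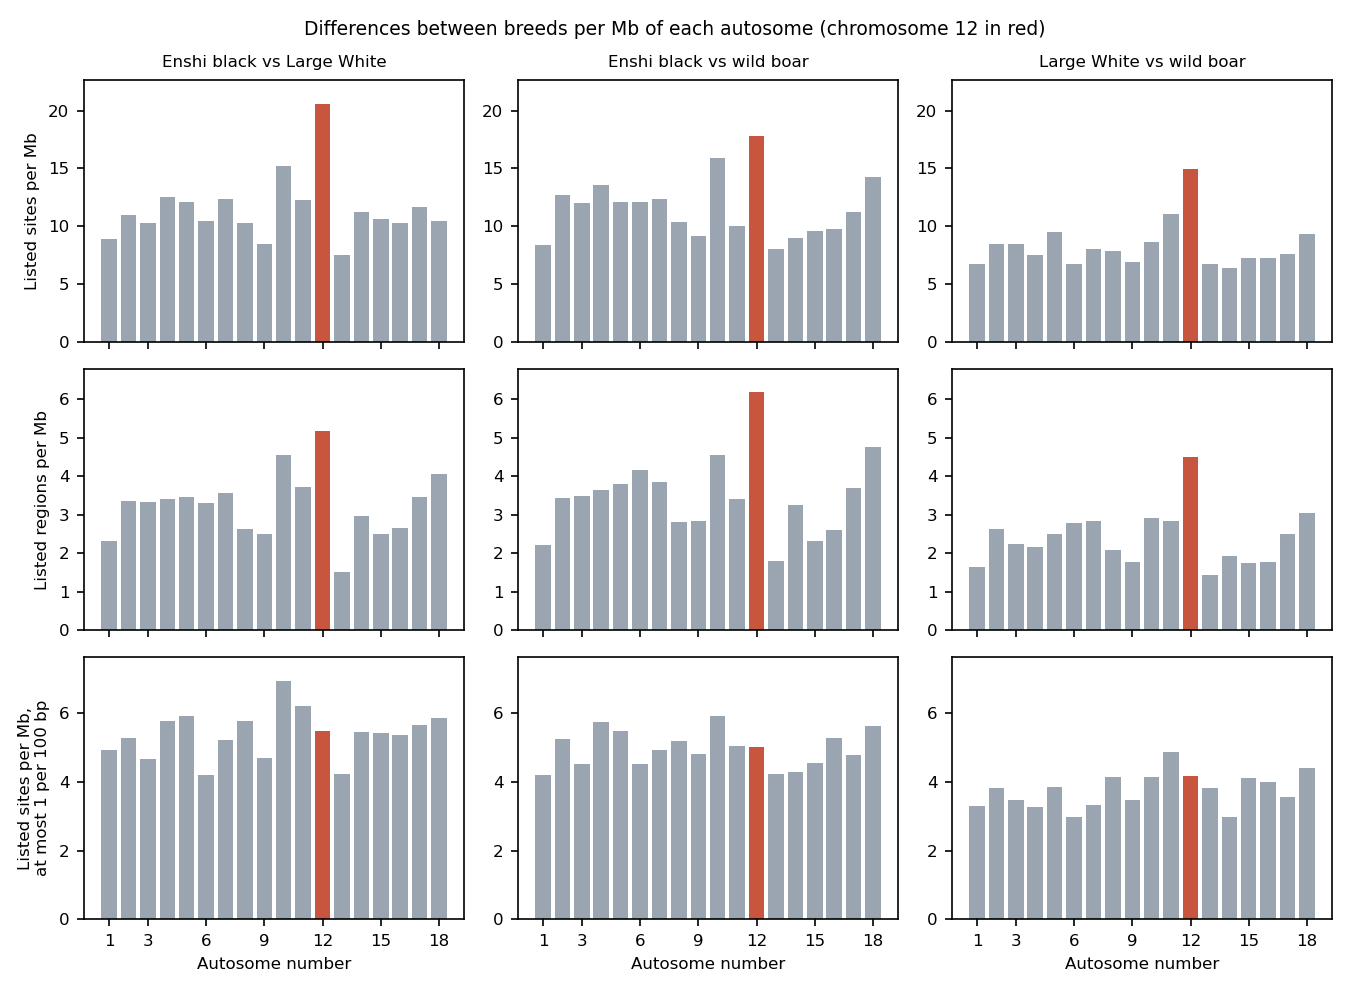
Bars give the number of listed sites per Mb (top row), listed regions per Mb (middle row) and listed sites per Mb after at most 1 site per 100 bp was kept (bottom row) for each of the 18 autosomes, with 1 column per breed comparison and chromosome 12 in red. Chromosome 12 is the tallest bar in the top and middle rows, from 14.96 to 20.6 sites and 4.51 to 6.18 regions per Mb, and is not the tallest in the bottom row, from 4.16 to 5.48 sites per Mb.

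The high number of sites lay mainly inside tight clusters of many sites, and less in more places along the chromosome. After at most 1 site per 100 bp was kept, chromosome 12 held 5.48, 5.01 and 4.16 sites per Mb and ranked 8th, 9th and 3rd of 18, beside medians of 5.44, 4.93 and 3.81. Listed sites more than 500 bp from any other listed site were rarer per Mb on chromosome 12 than on each of the other autosomes, at 1.32, 1.48 and 1.21 per Mb against medians of 2.60, 2.26 and 1.67. They made up 6.43%, 8.34% and 8.11% of its sites, beside 23.8%, 20.2% and 22.3% on the other autosomes. Clusters of at least 2 listed sites within 500 bp of each other numbered 2.24, 1.84 and 1.58 per Mb. Their rate ranked 3rd, 11th and 7th of 18, beside medians of 1.94, 1.88 and 1.42. Each cluster held 8.61, 8.83 and 8.72 sites on average. The highest averages on another autosome were 5.64, 6.02 and 5.48 sites per cluster.

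Listed sites of chromosome 12 accordingly fell inside a listed region far more often than elsewhere. The share was 88.0% of sites between Large White pig and Enshi black pig, 87.8% between Chinese wild boar and Enshi black pig and 87.1% between Chinese wild boar and Large White pig, beside 56.1%, 61.3% and 56.9% on the other autosomes together. No other autosome passed 68.8%, 74.8% and 70.5%. A region of chromosome 12 that held a listed site held 9.58, 8.53 and 9.29 of them on average, beside 5.38, 5.84 and 5.47. Regions with a listed site were denser than on every other autosome, at 1.89, 1.83 and 1.40 per Mb. Regions without any listed site were also denser than on every other autosome, at 3.28, 4.35 and 3.10 per Mb.

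**Figure D2:**
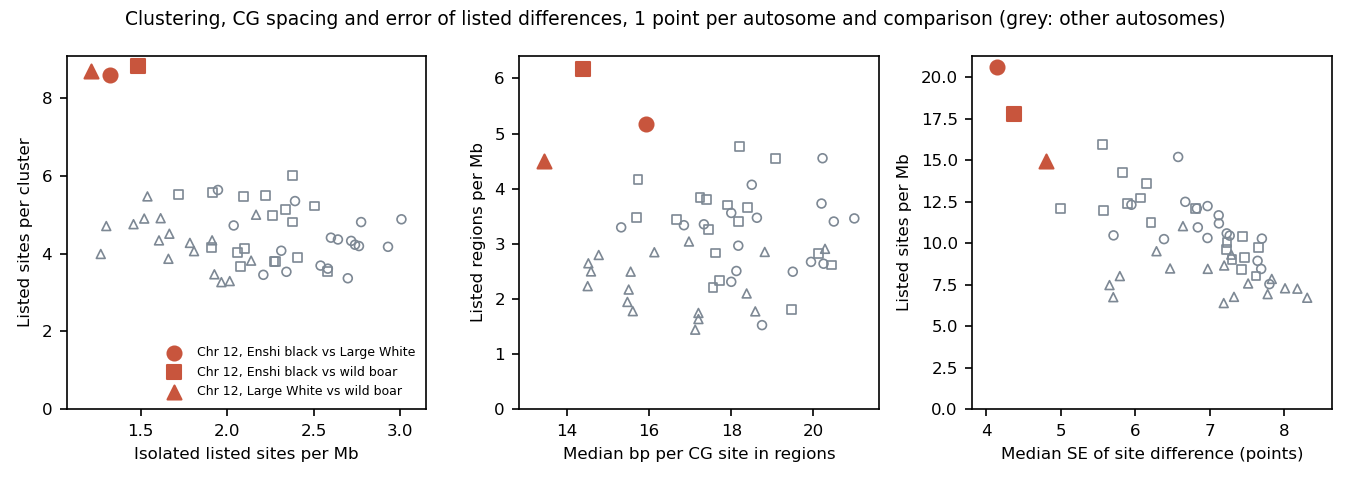
Each point is 1 autosome in 1 breed comparison, with chromosome 12 in red and the other 17 autosomes in grey, marked by shape as in the legend for both. From left to right the panels set listed sites per cluster against isolated sites per Mb, listed regions per Mb against the median bp per CG site in regions, and listed sites per Mb against the median standard error of the site differences in percentage points. Chromosome 12 lies at 8.61 to 8.83 sites per cluster with 1.21 to 1.48 isolated sites per Mb, and at median standard errors of 4.14 to 4.80 points, apart from the other autosomes of the same comparison.

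The regions of chromosome 12 were rich in CG sites. Their median number of CG sites was 9.5, 10 and 11, above each other autosome (highest 9 in all 3 comparisons), while their median length of 176, 191.5 and 193 bp ranked 8th, 2nd and 1st. The length per CG site, taken for each region, had a median of 15.9, 14.4 and 13.4 bp. That was the shortest spacing of all autosomes except chromosome 6 (15.3 bp) between Large White pig and Enshi black pig. Regions with at most 15 bp per CG site were 2.21, 2.70 and 2.66 times as dense as on the other autosomes, and regions with wider spacing 1.496, 1.499 and 1.62 times.

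The differences themselves were smaller than elsewhere and had smaller standard errors. At listed sites the median absolute difference was 49.1, 48.5 and 49.9 percentage points, and at regions 29.5, 28.6 and 28.7 points, each the lowest of all 18 autosomes. The next lowest were close. At sites they were 52.7 and 50.8 (chromosome 6) and 50.8 (chromosome 4). At regions they were 29.6, 29.6 and 29.4, all on chromosome 6. Differences of at least 50 points made up 13.4%, 9.44% and 12.2% of the regions of chromosome 12, beside 17.4%, 16.3% and 17.9% of the regions on the other autosomes. The authors' standard error of a site difference had a median of 4.14, 4.37 and 4.80 points on chromosome 12, also the lowest of the autosomes, where the lowest others were 5.71, 4.999 and 5.65. Standard errors over 10 points were given to 6.74%, 6.03% and 7.06% of its sites, beside medians of 17.99%, 18.9% and 20.6%. The part of CG density and of the standard error in the density of listed differences was not tested.

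Large White pig was the higher breed in most differences on chromosome 12, against both other breeds. Against Large White pig, Enshi black pig was lower at 889 of 1306 sites (68.1%, exact binomial 95% interval 65.5 to 70.6), beside 55.1% of the sites of the other autosomes. The regions gave 196 of 328 (59.8%, interval 54.2 to 65.1), beside 54.2%. Large White pig was lower than Chinese wild boar at 326 of 949 sites (34.4%, interval 31.3 to 37.5), beside 51.2%, and at 110 of 286 regions (38.5%, interval 32.8 to 44.4), beside 51.7%. Between Chinese wild boar and Enshi black pig the direction was close to that elsewhere, with Enshi black pig lower at 629 of 1127 sites (55.8%, interval 52.9 to 58.7, beside 56.3%) and 207 of 392 regions (52.8%, interval 47.7 to 57.8, beside 55%). Neighbouring sites share smoothed levels, so the intervals over sites are too narrow as measures of how many separate places moved.

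Among the 18 autosomes, chromosome 12 had the highest share of sites higher in Large White pig over Enshi black pig (68.1%, next 66.7% on chromosome 18) and over Chinese wild boar (65.6%, next 58.7% on chromosome 18). Over regions the shares were 59.8%, below 61.8% on chromosome 18, and 61.5%, the highest. The lean of the sites was weaker outside dense windows. Outside the hot spots described below, Enshi black pig was the lower breed against Large White pig at 59.1% of 440 sites and lower than Chinese wild boar at 52.0% of 473 sites, and Large White pig was lower than Chinese wild boar at 46.0% of 339 sites. The regions leaned much the same outside the hot spots, with 59.3% lower in Enshi black pig than in Large White pig, 52.3% lower in it than in Chinese wild boar and 40.2% lower in Large White pig than in Chinese wild boar.

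**Figure D3:**
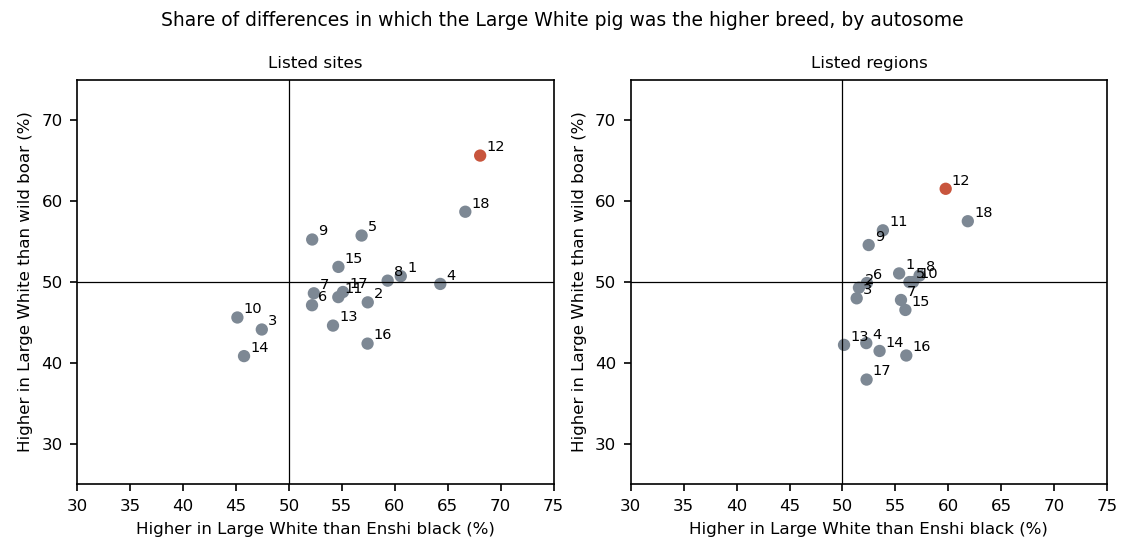
For each autosome, given by its number, the share of differences in which Large White pig was higher than Enshi black pig (horizontal axis, percent) is set against the share in which it was higher than Chinese wild boar (vertical axis, percent), for sites on the left and regions on the right, with lines at 50%. Chromosome 12, in red, lies farthest to the upper right for sites (68.1% and 65.6%) and highest on the vertical axis for regions (61.5%).

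Where Enshi black pig was the lower breed, the listed sites of chromosome 12 had median levels of 25.7% in Enshi black pig against 85.2% in Large White pig. Where it was the higher one, the medians were 89.6% and 33.1%. Sites lower in Enshi black pig than in Chinese wild boar had medians of 28.8% and 89.5%, and sites higher in it 84.0% and 27.4%. Sites higher in Large White pig than in Chinese wild boar stood at 83.1% and 23.9%, and sites lower in it at 30.5% and 92.3%. These are medians of each breed over the sites and not levels of a single site.

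The chromosome was divided into 13 bins of 5 Mb from position 0, the last of which ends after 3.45 Mb. Regions were spread widely over them. All 12 full bins held more regions than the median full bin of the other autosomes in 2 of the 3 comparisons, and 11 of 12 did so between Large White pig and Enshi black pig. The counts ran from 9 to 35, 19 to 46 and 12 to 30 regions per full bin, beside medians of 12, 13 and 8 on 467 bins elsewhere. Sites were less evenly spread, from 22 to 222, 23 to 175 and 15 to 151 per full bin, and 9, 9 and 11 of the 12 full bins passed the medians of 45, 45 and 31.

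The direction switched along the chromosome, and in several bins nearly every site went the same way. From 40 to 45 Mb Enshi black pig stood below Large White pig at 93.2% of 222 sites and lower than Chinese wild boar at 95.3% of 127. The fullest 100 kb window of that bin held 102 of the 222 sites and 74 of the 127. Regions of that bin leaned less, with 76.7% of 30 and 67.4% of 46 lower in Enshi black pig. From 55 to 60 Mb Enshi black pig was again the lower breed, at 91.0% of 166 sites and 81.9% of 171, of which the fullest window held 73 and 67. The regions of that bin leaned less, with 59.3% of 27 and 62.5% of 32 lower. In the last bin, after 60 Mb, Enshi black pig was the higher breed, at 79.8% of 119 sites over Large White pig and 92.6% of 81 sites over Chinese wild boar. The regions of the last bin showed no such lean over Large White pig, with 50% of 24 higher in Enshi black pig, and 56.7% of 30 were higher in it than in Chinese wild boar. A single 100 kb window held 84 of those 119 sites and 36 of those 81 lay in the fullest window of the other comparison.

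Chinese wild boar was often the low breed towards the other end of the chromosome, but not only there. From 0 to 25 Mb each of the 5 bins had more sites higher in Large White pig, compared with Chinese wild boar, at 80.9% of 89 sites, 85.1% of 114, 62.5% of 32, 58.6% of 58 and 86.1% of 151. One window held 45 of the 89 sites from 0 to 5 Mb, and another 114 of the 151 sites from 20 to 25 Mb. The regions of these bins went the same way at 58.6% of 29, 69.6% of 23, 65.0% of 20, 63.0% of 27 and 76.7% of 30. Most sites were also higher in Large White pig from 25 to 30 Mb (56.9% of 58) and 30 to 35 Mb (73.6% of 53). The same held from 40 to 45 Mb (66.7% of 132) and 55 to 60 Mb (69.4% of 36). In the bins from 35 to 40 Mb (15 sites), from 45 to 55 Mb and after 60 Mb most sites were lower in Large White pig. The fullest window held 69 of the 128 sites from 45 to 50 Mb. Most regions were also lower in it from 35 to 40 Mb (64.7% of 17) and from 50 to 55 Mb (58.3% of 12). From 45 to 50 Mb the regions leaned against the sites, with 70% of 20 higher in Large White pig. After 60 Mb they did so too, with 58.3% of 24 higher in it. Enshi black pig was also higher than Chinese wild boar from 0 to 5 Mb (80.2% of 91 sites) and from 15 to 20 Mb (77.3% of 110 sites), but lower at 87.5% of 32 sites from 5 to 10 Mb. The fullest windows held 51 of those 91 sites, 39 of the 110 and 16 of the 32. Of the regions, 61.9% of 21 from 0 to 5 Mb, 55.2% of 29 from 15 to 20 Mb and 61.5% of 26 from 5 to 10 Mb were higher in Enshi black pig, so in the last of these bins the regions leaned against the sites.

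**Figure D4:**
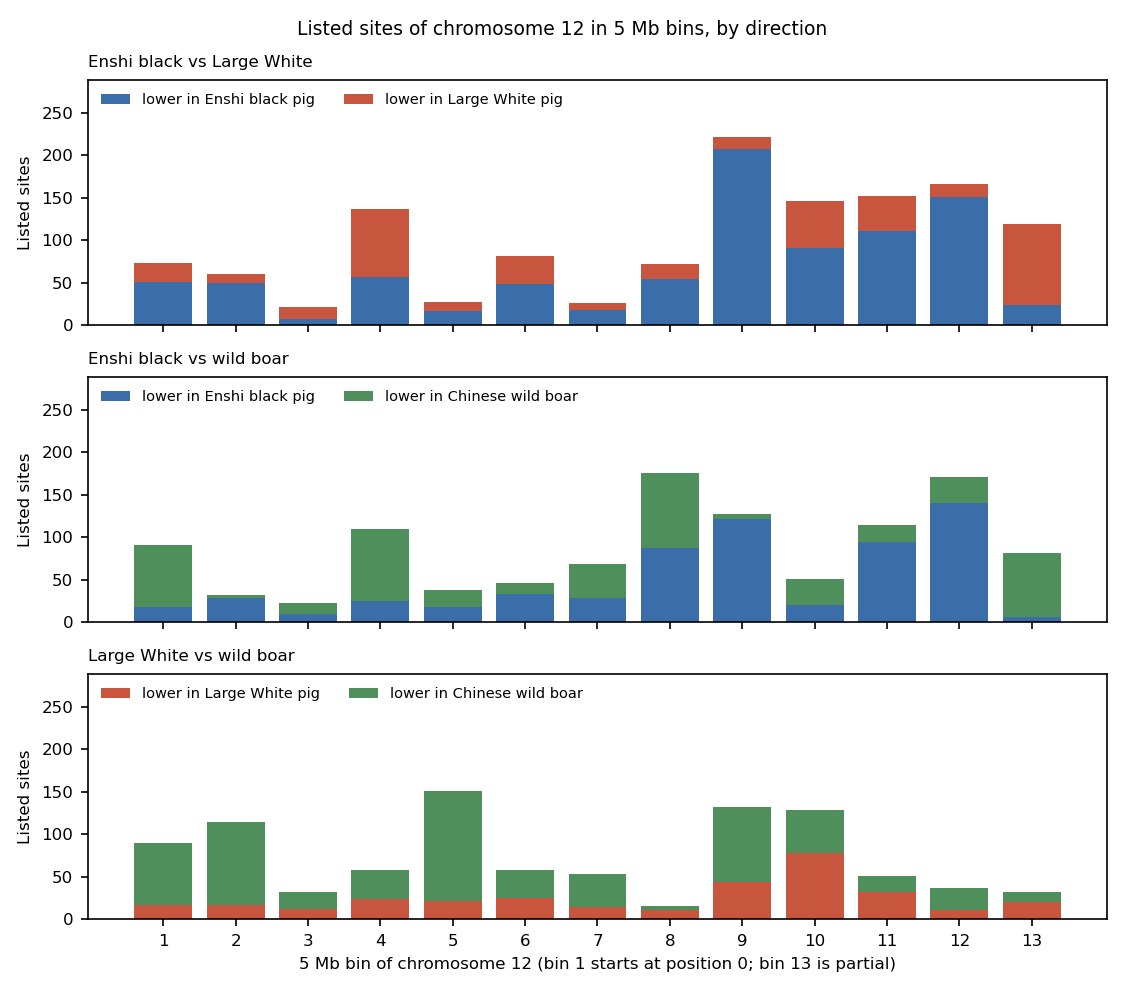
Stacked bars give the number of listed sites in each 5 Mb bin of chromosome 12, split by the breed with the lower level, with 1 panel per comparison and bins numbered from 1. Bin 9 is almost wholly lower in Enshi black pig in the upper and middle panels (93.2% of 222 sites and 95.3% of 127 sites), bin 13 is mostly higher in it, and bin 5 of the lowest panel holds 151 sites of which 86.1% are lower in Chinese wild boar.

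Hot spots were defined as 100 kb windows with at least as many listed sites as the 99th percentile of windows on the other autosomes, which came to 14, 15 and 11 sites. Chromosome 12 held 28 hot spots among its 635 windows between Large White pig and Enshi black pig (4.41%, beside 1.05% of windows elsewhere), 20 between Chinese wild boar and Enshi black pig (3.15%, beside 1.08%) and 21 between Chinese wild boar and Large White pig (3.31%, beside 1.14%). They held 66.3%, 58.0% and 64.3% of its listed sites, beside 24.3%, 27.9% and 29.6% in the hot spots of the other autosomes. Outside hot spots, sites of chromosome 12 numbered 7.25, 7.69 and 5.52 per Mb and ranked 16th, 11th and 10th of 18, below the medians of 8.12, 7.98 and 5.56. Windows were left out by their number of sites, so this lower rank is partly built in. Regions outside hot spots still numbered 4.42, 5.59 and 4.06 per Mb, the highest of the 18 autosomes in each comparison. The share of windows with no listed site was 72.8%, 72.4% and 77.2% on chromosome 12, above the 67.1%, 69.1% and 75.1% elsewhere.

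In all, 48 windows of chromosome 12 were hot in at least 1 comparison, 19 in at least 2 and 2 in all 3. They were scattered over 12 of the 13 bins, with none from 30 to 35 Mb and at most 6 in any bin. The fullest windows, of 102 sites between Large White pig and Enshi black pig (42.2 to 42.3 Mb) and 114 sites between Chinese wild boar and Large White pig (20.6 to 20.7 Mb), exceeded the fullest window of the other autosomes, which held 74 in both comparisons. Between Chinese wild boar and Enshi black pig the fullest window held 74 sites, below the 85 of the fullest window elsewhere. Counting the 2 windows hot in all 3 comparisons, 12 windows were hot in both comparisons of Enshi black pig, 6 in both of Large White pig and 5 in both of Chinese wild boar. Any 2 comparisons share a breed, so these counts are a description.

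Several shared hot spots were places where Enshi black pig was low. In the window from 42.2 to 42.3 Mb, 98 of 102 sites were lower in Enshi black pig than in Large White pig and all 74 sites were lower in it than in Chinese wild boar. Its main region, chr12:42239249-42240425, had 99 CG sites at a mean of 24.6% in Enshi black pig against 76.8% in Large White pig. In the window from 42.0 to 42.1 Mb, all 48 sites were lower in Enshi black pig than in Large White pig, and chr12:42059410-42059870 (37 CG sites) stood at 16.4% and 65.7%.

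The next such windows lay at 54.8 to 54.9 Mb and 55.4 to 55.5 Mb, and neither held a listed site between Chinese wild boar and Large White pig. At chr12:54895251-54895690 the 61 CG sites averaged 20.7% in Enshi black pig against 64.6% in Large White pig. Nearly the same stretch, chr12:54895221-54895690, averaged 20.7% in Enshi black pig against 61.2% in Chinese wild boar. At chr12:55472165-55472849 the 55 CG sites averaged 26.3% in Enshi black pig against 85.5% in Large White pig. All 73 and all 67 listed sites of that second window were lower in Enshi black pig. The window from 47.9 to 48.0 Mb was similar against Large White pig, with all 60 sites lower in Enshi black pig and chr12:47929434-47929935 at 29.6% and 71.6% over 51 CG sites. It was hot in both comparisons of Large White pig, however, and Large White pig was the high breed in both. All 11 sites between Chinese wild boar and Large White pig were higher in Large White pig (medians 37.5% and 72.2%). Between Chinese wild boar and Enshi black pig the window was not hot, with all 7 sites lower in Enshi black pig.

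At the far end the order was the opposite. The region chr12:63391889-63392711 had 95 CG sites at 84.3% in Enshi black pig against 47.5% in Large White pig, and held 84 listed sites. Against Chinese wild boar, chr12:63392006-63392711 had 92 CG sites at 84.2% and 56.0%. Large White pig and Chinese wild boar had no listed site in that window.

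Chinese wild boar was the low breed at the region with the most CG sites of chromosome 12. The region chr12:20633853-20634555 had 125 CG sites, the most of all 5434 autosomal regions between Chinese wild boar and Large White pig, and stood at 62.2% and 21.0%. Over chr12:20633906-20634541 (120 CG sites) Enshi black pig had 49.5% and Chinese wild boar 20.8%. Large White pig lay above Enshi black pig in a short part of it, chr12:20633906-20633959, at 68.3% and 48.5% over 11 CG sites. The same low level in Chinese wild boar was seen at chr12:6079271-6079835, with 48.5% in Enshi black pig against 21.8% in Chinese wild boar over 88 CG sites, and at chr12:6079381-6079948, with 46.4% in Large White pig against 17.8% in Chinese wild boar over 69. It was also seen in the shared hot spot from 2.2 to 2.3 Mb, where chr12:2212768-2213284 stood at 90.4% in Enshi black pig, 24.4% in Chinese wild boar in the same list, and 79.4% in Large White pig.

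Large White pig was the breed apart in other places. In the hot spot from 46.6 to 46.7 Mb it was low, with chr12:46603579-46604506 at 18.97% in Large White pig against 63.9% in Chinese wild boar over 71 CG sites, and chr12:46603862-46604060 at 55.6% in Enshi black pig against 15.7% in Large White pig over 33. In the last part of the same region, chr12:46604271-46604506, Enshi black pig was low as well. It stood there at 30.9% against 67.9% in Chinese wild boar over 11 CG sites. At chr12:55501536-55502079 Large White pig was high, with 21.1% in Enshi black pig against 55.3% in Large White pig over 72 CG sites. The overlapping region chr12:55501628-55502164 gave 56.7% in Large White pig against 26.4% in Chinese wild boar over 53. Chinese wild boar was higher than Large White pig at chr12:26802062-26802892, with 59.9% in Large White pig against 83.6% in Chinese wild boar over 78 CG sites. The remaining region among those with the most CG sites, chr12:20348903-20349392 with 75, stood at 80.6% in Large White pig against 59.6% in Chinese wild boar. Neither of the last 2 regions contained a listed site.

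Among regions with at least 10 CG sites, the named regions with the largest differences were 161 to 380 bp long. The largest of these was at chr12:45511248-45511474, where 24 CG sites averaged 99.2% in Large White pig against 20.1% in Chinese wild boar, with Enshi black pig at 82.7%. At chr12:17533502-17533728 (16 CG sites) Chinese wild boar was again low at 27.4%, with Large White pig at 97.3% and Enshi black pig at 93.3%. At chr12:60839772-60840151 (16 CG sites) Large White pig was low, at 25.2% against 89.7% in Chinese wild boar. Enshi black pig was the low breed at 3 of these regions. The first, chr12:56403091-56403363 with 12 CG sites, stood at 24.2% in Enshi black pig, against 97.4% in Large White pig and, in the other list, 92.4% in Chinese wild boar. The second, chr12:16551235-16551395 with 17, stood at 22.8% and, in Chinese wild boar, 92.3%. The third, chr12:39658344-39658521 with 11, stood at 28.8%, with 94.7% in Large White pig and also 96.2% in Chinese wild boar. Enshi black pig was higher than Large White pig at chr12:54307682-54308054 (90.4% and 17.5%, 13 CG sites). The same held at chr12:51864279-51864483 (96.0% and 23.5%, 12 CG sites).

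Of the 30 CG sites of the whole series that were listed in all 3 comparisons, 11 lay on chromosome 12, all of them between positions 42240071 and 42240116. At these 11 sites the 3 breeds had 3 separate levels. Enshi black pig stood between 9.37% and 10.9%, Chinese wild boar between 45.8% and 53.1%, and Large White pig between 96.9% and 98.4%. The ranges do not overlap, but the sites lie within 46 bp and several have identical levels, so they are 1 observation and not 11.

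At a coarser scale, the 1006 region entries joined into 733 loci, of which 12 had a region in all 3 comparisons. At the 6 of these with the most CG sites, no single order of the breeds recurred throughout. At chr12:62382284-62383131 Chinese wild boar was lowest, at 23.9% beside 55.8% in Enshi black pig in one list and at 47.0% beside 69.1% in Large White pig in another. The regions listed there cover different parts of the locus, so levels of a breed differ between lists. At chr12:35222409-35223013 Chinese wild boar was again lowest (6.89% beside 46.1% in Enshi black pig, and 10.3% beside 34.7% in Large White pig), with Large White pig below Enshi black pig (29.8% and 52.7%). At chr12:16924924-16925596 Enshi black pig was highest, at 69.5% beside 21.7% in Large White pig and at 72.9% beside 34.9% in Chinese wild boar, whereas the 12 CG sites listed between the other breeds gave 62.8% in Large White pig against 40.2% in Chinese wild boar.

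**Figure D5:**
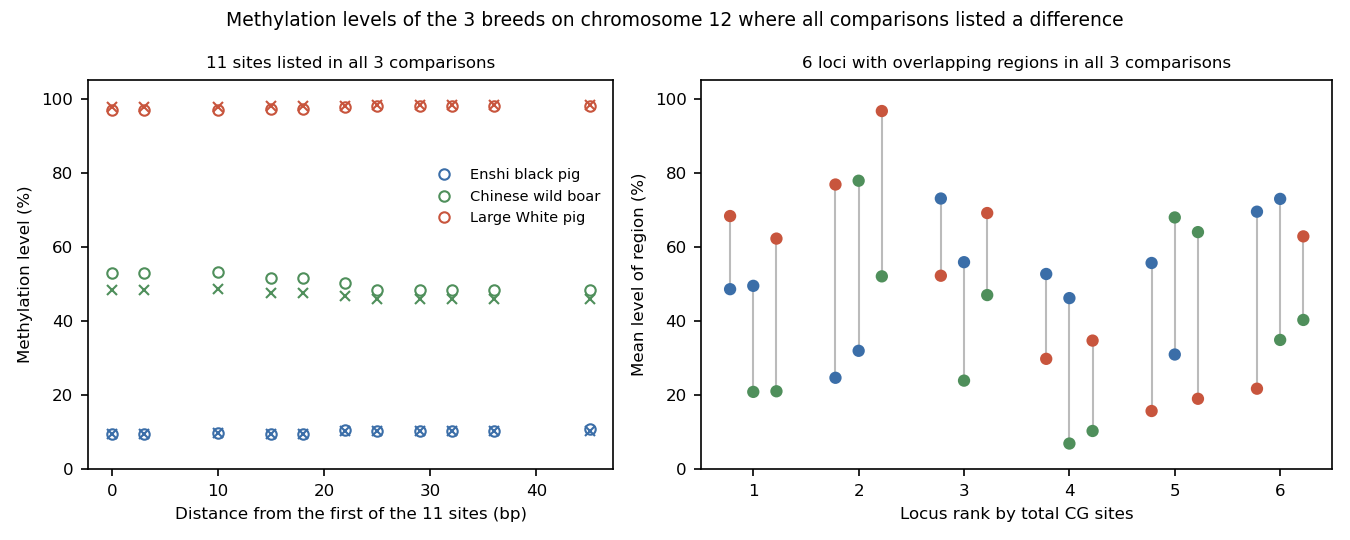
The left panel gives the methylation level in percent of each breed at the 11 sites listed in all 3 comparisons against the distance in bp from the first of them, with a circle and a cross for the values of a breed in its 2 lists. The right panel gives the mean level in percent of the regions of both breeds, joined by a line, in the 3 comparisons (from left to right Large White pig and Enshi black pig, Chinese wild boar and Enshi black pig, Chinese wild boar and Large White pig) at the 6 loci with overlapping regions in all comparisons, ranked by total CG sites. The left panel shows 3 level bands near 10.3%, 48.4% and 97.9%, and the right panel shows that the lowest breed differs between loci.

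Regions of chromosome 12 overlapped a region of another comparison by at least 1 bp in 176 of 328 cases between Large White pig and Enshi black pig (53.7%, beside 43.5% elsewhere), 196 of 392 between Chinese wild boar and Enshi black pig (50%, beside 43.5%) and 155 of 286 between Chinese wild boar and Large White pig (54.2%, beside 48.2%). The comparisons share a breed pair by pair, so the overlap is a description. A site listed in exactly 2 comparisons sets the breed common to both apart from the other two. On chromosome 12 there were 708 such sites, of which Enshi black pig was apart at 398, Large White pig at 158 and Chinese wild boar at 152. Enshi black pig accounted for 56.2% of them, beside 45.7% on the other autosomes. The split was more even among joined loci with regions in exactly 2 comparisons. These numbered 100 for Enshi black pig, 80 for Chinese wild boar and 62 for Large White pig. Loci were not joined on the other autosomes, so that count has no comparison.

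At those sites the breed apart was mostly the lower one. Enshi black pig was lower than both others at 331 of 398 sites and Chinese wild boar at 144 of 152, beside 4581 of 6034 and 2689 of 3911 on the other autosomes. Large White pig was higher than both others at 62 of 158 sites (39.2%), beside 24.6% on the other autosomes. Counted as joined loci, Enshi black pig was lower at 71 of 100, Chinese wild boar at 56 of 80 and Large White pig at 33 of 62.

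Not every listed region held a clear difference of its mean. Mean differences under 20 points were found in 9.76%, 7.91% and 9.09% of the regions of chromosome 12, beside 6.69%, 6.90% and 6.41% elsewhere. The smallest on chromosome 12 were 0.614, 0.550 and 1.4995 points. The smallest of those between Large White pig and Enshi black pig, chr12:54697256-54698630, spanned 1375 bp with only 6 CG sites at 82.4% and 83.1%. Regions whose breeds were both under 50% made up 7.32%, 11.2% and 10.5% of the regions of chromosome 12, beside 4.93%, 5.30% and 4.88% elsewhere.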

How the data were processed

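Liver methylomes of Chinese wild boar, Large White pig and Enshi black pig (1 per breed) were compared by the authors in pairs. Reads were aligned to Sscrofa10.2 with Bismark 0.15.0 according to the submitters' processing notes. How differences were called, and with which limits, was not given in the sources used here. For every differentially methylated CG site or region, the authors deposited a methylation level per breed (a fraction), the standard error of each site difference and a posterior probability (also a fraction, at least 0.999 at every listed site). The deposited difference columns, statistics, p-values and false discovery rates hold the authors' own comparisons and were not used. Read depth is unknown.

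Rows of chromosome 12 were taken from the 6 lists, fractions were turned into percent and differences recomputed from the levels. Densities used the last listed position in any list as chromosome length. Windows of 100 kb and bins of 5 Mb started at position 0. A window was a hot spot at or above the 99th percentile of windows on the other autosomes, empty windows included. Shares have exact (Clopper-Pearson) 95% intervals, which cover counting only. Columns were read as breeds by the order of codes in the list names. The labels attach the comparison of Chinese wild boar and Enshi black pig to the sample of Large White pig, a breed outside it, and that of Chinese wild boar and Large White pig to the former, so which breed a level belongs to rests on the list names. Named regions were, per comparison, the 3 with the most CG sites, the 3 with the largest difference among those with at least 10 CG sites, the main regions of up to 8 shared hot spots, sites in all 3 lists and the 6 largest loci of all 3 lists. The region with the smallest mean difference was named after its values were seen. The chromosome, the lists and the rules were chosen with earlier results of these data known. No genome or annotation of chromosome 12 on Sscrofa10.2 was used, so no gene was assigned and no sequence is given. Python 3.11.15, numpy 2.4.6, pandas 2.3.3, scipy 1.17.1 and matplotlib 3.10.9 were used. Counts of sites, directions and windows, the finding of hot spots, overlaps and the thinning of sites were tested on simulated data. Counts of clusters, bins, loci and sites shared between lists were not tested in this way.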

Additional observations from a re-analysis of the deposited data

How the results depend on the processing

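Values are given first for Large White pig and Enshi black pig, then for Chinese wild boar and Enshi black pig, then for Chinese wild boar and Large White pig. The density of sites depended on clustering. With at most 1 site per 100 bp it was 5.48, 5.01 and 4.16 per Mb, and its ratio to the other autosomes 1.05, 1.04 and 1.14. Without hot spots on all autosomes, an alternative added after the data were seen, the ratio was 0.905, 0.986 and 1.02. Hot spots are picked by their number of listed sites and held more of the sites of chromosome 12. A fall of the ratio is thus partly built in, and no turn of its direction can be read from it. Without the 5 Mb bin with the most sites it was 1.77, 1.52 and 1.79, and for differences of at least 40 points 1.74 in the first comparison. Regions per Mb were 1.37, 1.26 and 1.09 with at least 40 points, 2.25, 3.01 and 2.11 with at least 200 bp, and 2.58, 3.33 and 2.43 with at least 10 CG sites, since fewer regions are counted. The ratio of regions per Mb, in alternatives added later, was 2.23, 2.57 and 2.74 with at least 10 CG sites, 2.21, 2.70 and 2.66 with at most 15 bp per CG site and 1.496, 1.499 and 1.62 above that.

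The share of sites lower in Enshi black pig (first 2 comparisons) or in Large White pig (last comparison) was 59.1%, 52.0% and 46.0% without hot spots, 64.9%, 59.2% and 40.7% with at most 1 site per 10 kb (both added later), and 61.6% and 39.4% in the last 2 comparisons with at most 1 per 100 bp. Of the regions with at least 40 points, 72.4% were lower in Enshi black pig than in Large White pig. Hot spots numbered 13 and 13 with windows of 200 kb in the first 2 comparisons and 32 with windows of 50 kb in the second. Overlap over at least 50% of each region was found in 34.1%, 34.2% and 32.9%. Joined loci in place of sites gave 100 for Enshi black pig, 62 for Large White pig and 80 for Chinese wild boar. Another 44 values stayed within their counting interval or within 1.5 times.

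No paired analysis was possible because a breed's only methylome leaves nothing to pair, and for the same reason no sample was left out in turn. The unknown read depth limits every level, and the SE of a site covers the authors' model and not differences between pigs.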
